A study of Mus musculus with 8 samples.

Results

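The genes described here are 10 genes of the cytotoxic granule programme of natural killer (NK) cells and killer T cells: Nkg7, Prf1, Gzma, Gzmb, Gzmk, Ccl5, Klrd1, Klrk1, Il2rb and Tbx21. They were found by gene symbol among 16593 genes on the array, and all 14 of their probes were read. The samples were whole dissected spines of 4 mice with proteoglycan-induced spondylitis (PGISp), against whole spines of 4 control mice. PGISp mice were BALB/c with the IL4 knockout, were female, and were injected from 3 months of age on days 0, 21 and 42 with human cartilage extract plus the adjuvant dimethyl dioctadecyl ammoniumbromide. Control mice were also BALB/c with the IL4 knockout and had no treatment, and their sex is not stated separately, so every spine lacked interleukin-4. PGISp mice were chosen for severe peripheral arthritis, because disease in the spine itself could not be scored before the RNA was taken, and spines were collected at week 12. Each spine was hybridised to 1 of 8 positions of an Illumina MouseRef-8 BeadChip, with PGISp spines at A, C, E and G and control spines at B, D, F and H. These letters name the spines. Control B and F carried a gene of the Y chromosome, Eif2s3y, and look male by it. In every comparison that includes control B or F, sex can therefore not be fully told apart from treatment.

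Killer lymphocytes store their weapons in secretory granules. On contact with a target cell the granules fuse with the plasma membrane, perforin (Prf1) opens pores, and granzymes, a family of serine proteases, enter the target and start its death. NKG7 is a membrane protein of these granules, and CCL5 is a chemokine that killer T cells also store and release. CD94 (Klrd1) and NKG2D (Klrk1) are surface receptors that read the state of the target cell, the beta chain Il2rb carries interleukin-2 and interleukin-15 signals, and T-bet (Tbx21) is a T-box transcription factor of type 1 lymphocytes. In spondyloarthritis the same lymphocytes are studied because the disease is linked to a class I molecule that killer T cells and NK cells recognise.

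The first question was which of the 10 genes whole spine RNA showed at all. The deposited values are log2 expression values, and on each array the background was set at the 95th percentile of 1305 probes for olfactory and vomeronasal receptors, genes not used in bone or marrow. This background lay between 6.73 and 6.80. Only Nkg7, Prf1, Ccl5 and Klrd1 had a probe above it on all 8 arrays. The same 4 genes passed the filter on low values, which asked for a mean over the 8 arrays above the median array value of 6.77, and 6 of the 10 genes did not. The 10 probes below the filter ran between 6.51 and 6.75 in PGISp spines and between 6.52 and 6.81 in control spines. Of their values, 2 of 40 in PGISp spines and 4 of 40 in control spines lay above the background.

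**Figure D1:**
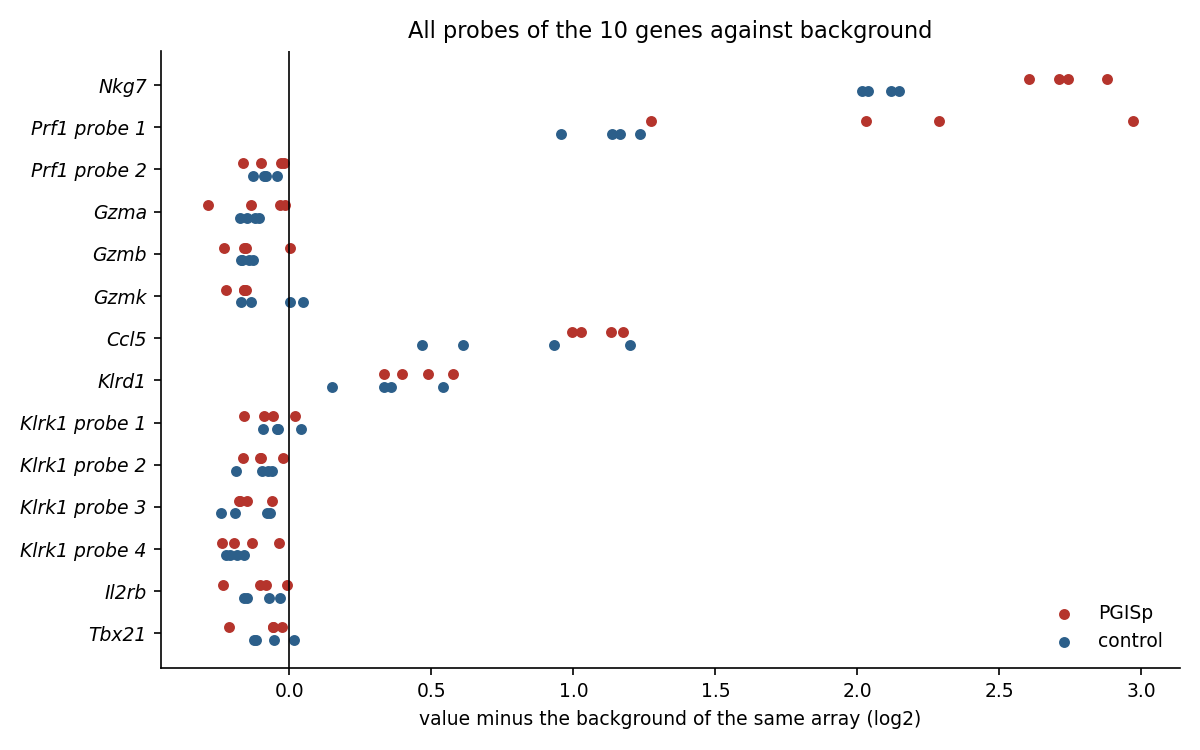
Value of each of the 14 probes minus the background of the same array (log2, horizontal axis), 1 point per spine, PGISp in red above control in blue; the vertical line at 0 is the background. Nkg7, the brighter Prf1 probe, Ccl5 and Klrd1 lay to the right of the line on all 8 arrays, and the other 10 probes crowded at it.

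The granzymes were among the genes at background. Gzma, a tryptase-like granzyme, read between 6.51 and 6.73 in PGISp spines and between 6.57 and 6.65 in control spines, with 0 of 8 arrays above background. Gzmb, which cleaves after aspartate and activates caspases, was above background on 1 of 8 arrays, PGISp G at 6.73. Gzmk, another tryptase-like granzyme that lies next to Gzma in the mouse genome, was above background on 0 of 4 PGISp arrays and on 2 of 4 control arrays, B at 6.81 and F at 6.75. No fold is given for these genes, since both groups were at background. The receptor chain Il2rb was above background on 0 arrays, Tbx21 on 1, and the 4 probes of Klrk1 on 2, 0, 0 and 0 of the 8. At this signal a difference in these 6 genes was not detectable. In bulk spine RNA, fewer cells of a type and less RNA per cell cannot be told apart.

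Of the 4 measured genes, Nkg7 and Prf1 were higher in PGISp spines and none was lower. Nkg7 rose 1.58-fold and Prf1 2.04-fold, whereas Ccl5 and Klrd1 did not pass the test. A gene was called where limma gave it an adjusted p under 0.1 (Benjamini-Hochberg, over 9609 genes). Over all genes tested, 6.25% were called higher (601) and 4.56% were called lower (438), and 7.77% had all 4 PGISp values above all 4 control values. With 4 measured genes, a count of 2 says little by itself, and the values of each gene follow.

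Nkg7 read 9.51, 9.48, 9.63 and 9.33 in PGISp spines A, C, E and G, against 8.88, 8.89, 8.76 and 8.78 in control spines B, D, F and H. The lowest PGISp spine exceeded the highest control spine, and the spread within each group was small. The means were 9.49 ± 0.12 and 8.83 ± 0.07 (SD, n = 4 each). The difference was 0.66 on the log2 scale (SE 0.07), or 1.58-fold with a 95% interval of 1.41 to 1.77, at an adjusted p of 0.00185. By p-value Nkg7 ranked 20 among the 9609 genes, and by size it ranked 98 among the genes called higher. Without control B and F, the spines that look male, the Nkg7 difference was 0.65 at an adjusted p of 0.0483.

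Prf1 read 9.77, 8.77, 9.04 and 8.004 in PGISp spines A, C, E and G, against 7.90, 7.98, 7.70 and 7.90 in control spines B, D, F and H. The groups did not overlap, but PGISp G stood almost level with control D, and PGISp A stood well above the rest. The means were 8.90 ± 0.73 and 7.87 ± 0.12 (SD, n = 4 each), and the SD among PGISp spines was larger than that of 99.9% of the genes tested. The difference was 1.03 on the log2 scale (SE 0.29), or 2.04-fold with a 95% interval of 1.30 to 3.19, at an adjusted p of 0.0681. Without PGISp G the difference was 1.32 at an adjusted p of 0.00536, and without PGISp A it was 0.73 at 0.0895. The call was lost without PGISp C (adjusted p of 0.114) or E (0.152), or without control B (0.142), F (0.183) or H (0.129). A second, dimmer Prf1 probe was at background on all 8 arrays, between 6.64 and 6.73 in PGISp spines and between 6.62 and 6.72 in control spines, so the rise was read by 1 of the 2 probes.

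**Figure D2:**
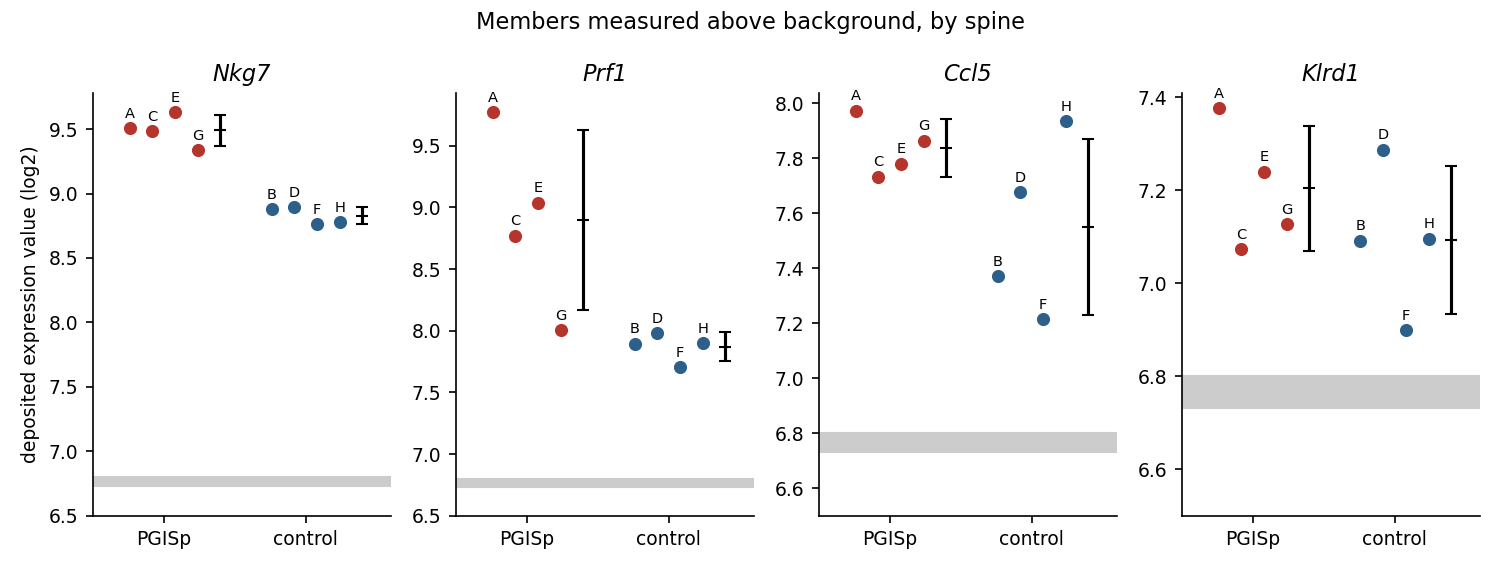
Deposited log2 value (vertical axis, its own range in each panel) of the 4 measured genes in each spine, PGISp in red on the left and control in blue on the right; the black bar is the mean ± SD of 4 spines and the grey band the range of the array backgrounds, 6.73 to 6.80. Nkg7 separated the groups cleanly, Prf1 separated them with a wide PGISp spread, and Ccl5 and Klrd1 overlapped.

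Ccl5 read 7.97, 7.73, 7.78 and 7.86 in PGISp spines A, C, E and G, against 7.37, 7.68, 7.22 and 7.94 in control spines B, D, F and H. The control spines were split, with B and F low and control H above 3 of the 4 PGISp spines. The difference was 0.29 on the log2 scale (SE 0.14), or 1.22-fold with a 95% interval of 0.98 to 1.52, at an adjusted p of 0.258. Control B and F also carried Eif2s3y, a gene of the Y chromosome, at 8.57 and 8.33, whereas it read between 6.49 and 6.65 in PGISp spines and 6.92 and 6.63 in control D and H. Without control B and F the Ccl5 difference was 0.03 at an adjusted p of 0.933. Without control H it was 0.42 and passed the test at 0.0815. The female marker Xist read 6.62 and 6.85 in control B and F, 7.37 and 7.89 in control D and H, and 7.40 to 8.37 in PGISp spines. Kdm5d, a Y-chromosome gene below the filter, read 6.98 and 6.90 in control B and F and 6.57 to 6.68 in the other spines. Uty, also below the filter, did not set B and F apart. Sex and treatment can thus not be fully told apart, and what part the difference between control spines played was not tested.

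Klrd1 read 7.38, 7.07, 7.24 and 7.13 in PGISp spines A, C, E and G, against 7.09, 7.29, 6.90 and 7.10 in control spines B, D, F and H. The groups overlapped throughout. The difference was 0.11 on the log2 scale (SE 0.09), or 1.08-fold with a 95% interval of 0.93 to 1.25, at an adjusted p of 0.544. The interval reached below and above no change.

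The promoters of the 2 genes that rose are shown with that of Gzmk, a granzyme at background, because T-bet acts through T-box sites. The sequences are RefSeq's for GRCm38.p6, 250 bases before to 50 bases after the start of the gene, read 5′ to 3′ on the gene's strand. The table used held 7 of the 10 genes. Capitals mark the T-box core motif GGTGTGA on either strand.
Nkg7, chr7:43436888-43437187, plus strand: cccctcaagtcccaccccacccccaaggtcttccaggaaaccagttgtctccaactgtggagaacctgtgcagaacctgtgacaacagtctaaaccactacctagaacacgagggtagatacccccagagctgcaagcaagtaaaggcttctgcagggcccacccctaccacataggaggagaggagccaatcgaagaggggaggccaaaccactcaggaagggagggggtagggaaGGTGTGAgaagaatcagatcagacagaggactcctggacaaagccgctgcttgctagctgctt
Prf1, chr10:61297586-61297885, plus strand: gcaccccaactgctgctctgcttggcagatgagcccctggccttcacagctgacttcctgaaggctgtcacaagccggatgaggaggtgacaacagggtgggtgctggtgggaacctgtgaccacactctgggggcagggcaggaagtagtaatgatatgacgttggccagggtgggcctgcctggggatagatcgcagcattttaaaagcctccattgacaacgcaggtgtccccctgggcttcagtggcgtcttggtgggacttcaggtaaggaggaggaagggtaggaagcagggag
Gzmk, chr13:113180916-113181215, minus strand: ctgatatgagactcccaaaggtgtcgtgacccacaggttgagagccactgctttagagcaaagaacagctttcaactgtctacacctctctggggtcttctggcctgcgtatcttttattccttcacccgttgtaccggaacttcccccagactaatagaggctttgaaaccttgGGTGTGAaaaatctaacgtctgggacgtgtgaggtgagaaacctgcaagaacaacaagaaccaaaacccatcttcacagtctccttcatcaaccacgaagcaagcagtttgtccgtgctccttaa
The core motif stood in Nkg7, starting 13 bases before the start site, and in Gzmk, starting 75 bases before it, and not in this window of Prf1. It was found in 2 of the 7 promoters, and 3.98% of 32851 promoters of the same length held it. The STAT motif TTCNNNGAA was in Nkg7 and Gzmb, against 8.30% of all promoters, and the RUNX-family motif TGTGGTT was in Gzma, Gzmb and Klrk1, against 5.27%. So the T-box motif occurred in a gene that rose and in one at background. These motifs were chosen after the promoters had been read, and a match describes the letters only.

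The other genes of the pathway were read from lists by role, and only genes above the filter were tested. Beside each count stand the shares over all genes tested. Of those, 6.25% were called higher, 4.56% were called lower, and 7.77% had every PGISp value above every control value. With so few genes per list, the counts say little by themselves. Among genes of granule biogenesis and release, 17 of 18 were on the array and 13 were tested. Of these, 5 rose and 0 fell, with a median difference of 0.19, beside a median of -0.0046 over all genes tested. The granule proteoglycan serglycin (Srgn), which packs granzymes and perforin in killer cells, read 9.03, 8.85, 8.99 and 8.62 in PGISp spines, against 8.46, 8.22, 8.06 and 8.46 in control spines. Its rise was 1.49-fold (adjusted p of 0.0209), and its second probe differed by 0.55 on the log2 scale. Rab27a, a GTPase that docks granules at the membrane, read 9.43, 9.38, 9.32 and 9.17 in PGISp spines, against 9.07, 8.78, 8.70 and 8.47 in control spines, a 1.49-fold rise (adjusted p of 0.0208). In both genes every PGISp spine exceeded every control spine.

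Snap23, a fusion protein of secretory cells, rose 1.45-fold (adjusted p of 0.00530). Its second probe was below the filter and differed by -0.05 on the log2 scale. The lysosomal membrane protein Lamp2 rose 1.36-fold (adjusted p of 0.0283) by its brightest probe, and its 3 other probes differed by 0.58, 0.08 and 0.30 on the log2 scale. The fifth gene that rose, named after its value was seen, was the vesicle fusion gene Vamp7, at 1.27-fold (adjusted p of 0.0638). Srgn, Rab27a, Snap23, Lamp2 and Vamp7 are also used by neutrophils, mast cells and many other secretory cells. The other 8 tested genes did not pass the test. Among them, picked after the calls were seen, Ctsw, a cathepsin of killer lymphocytes, differed by 0.16 (adjusted p of 0.226), the cystatin Cst7 by 0.21 (0.156) and the granule priming factor Unc13d by 0.09 (0.562). Fasl, the death ligand, was below the filter.

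Of the 7 other granzymes only Gzmm was measured, and it differed by 0.02 on the log2 scale (adjusted p of 0.891). The other 6 were below the filter, 5 of them above background on no array. Among genes that protect cells from granzymes and perforin, 4 were tested and 0 were called. The largest difference among them was in Calr, an endoplasmic reticulum chaperone also found in the granules, at 0.65 (adjusted p of 0.156), with PGISp spines at 7.95, 7.97, 9.11 and 8.67 and control spines at 7.76, 7.58, 7.59 and 8.18. Control H lay above PGISp A and C.

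Among NK receptors and their adaptors, 27 of 32 genes were on the array and 6 were tested, of which 3 rose and 0 fell, with a median of 0.29. They were 2 adaptors and 1 Fc receptor. Hcst (DAP10), the adaptor of NKG2D, read 8.51, 8.14, 8.51 and 8.005 in PGISp spines, against 7.98, 7.87, 7.82 and 7.65 in control spines, a 1.37-fold rise (adjusted p of 0.0581). Tyrobp (DAP12), an adaptor of activating NK receptors, rose 1.36-fold (adjusted p of 0.0477). The Fc receptor Fcgr3 (CD16) rose 1.58-fold (adjusted p of 0.00744). All 3 separated the groups, and all 3 are also expressed by myeloid cells. The other 21 genes on the array were below the filter, among them Ncr1, Klrb1c and the Ly49 receptor genes Klra1 and Klra7.

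H2-T23 encodes Qa-1, the class I molecule that CD94 and its NKG2 partners recognise, and was the single ligand tested. It read 9.45, 9.64, 9.80 and 9.61 in PGISp spines, against 8.96, 9.54, 9.08 and 9.24 in control spines. Control D lay above PGISp A, and the rise was 1.34-fold (adjusted p of 0.0745), while a second probe differed by 0.13 on the log2 scale. The NKG2D ligands Raet1d and Raet1e were below the filter. Of 7 tested genes of interleukin-2 and interleukin-15 signalling 0 were called, with a median of -0.04; Il15 differed by -0.11 and Jak3 by 0.18.

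Of 6 tested transcription factors that act beside T-bet 2 rose and 0 fell, with a median of 0.07. Nfil3, which NK cells need to develop, read 8.12, 8.42, 8.30 and 8.14 in PGISp spines, against 7.81, 7.56, 7.72 and 7.88 in control spines, a 1.42-fold rise (adjusted p of 0.0136) without overlap. Irf8 rose 1.22-fold (adjusted p of 0.0499), with PGISp A at 7.97 just below control B at 7.98. The T-box gene Eomes was below the filter, and Stat4, which relays interleukin-12, differed by 0.02 (adjusted p of 0.887). Of 8 tested type 1 cytokine and receptor genes 0 were called, and Ifng was below the filter. Among CCL5 receptors and sister chemokines 5 were tested and 0 were called, although Ccl4 separated the groups at 7.43, 7.85, 7.17 and 7.11 in PGISp spines and 6.98, 6.995, 6.97 and 6.92 in control spines (adjusted p of 0.112).

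**Figure D3:**
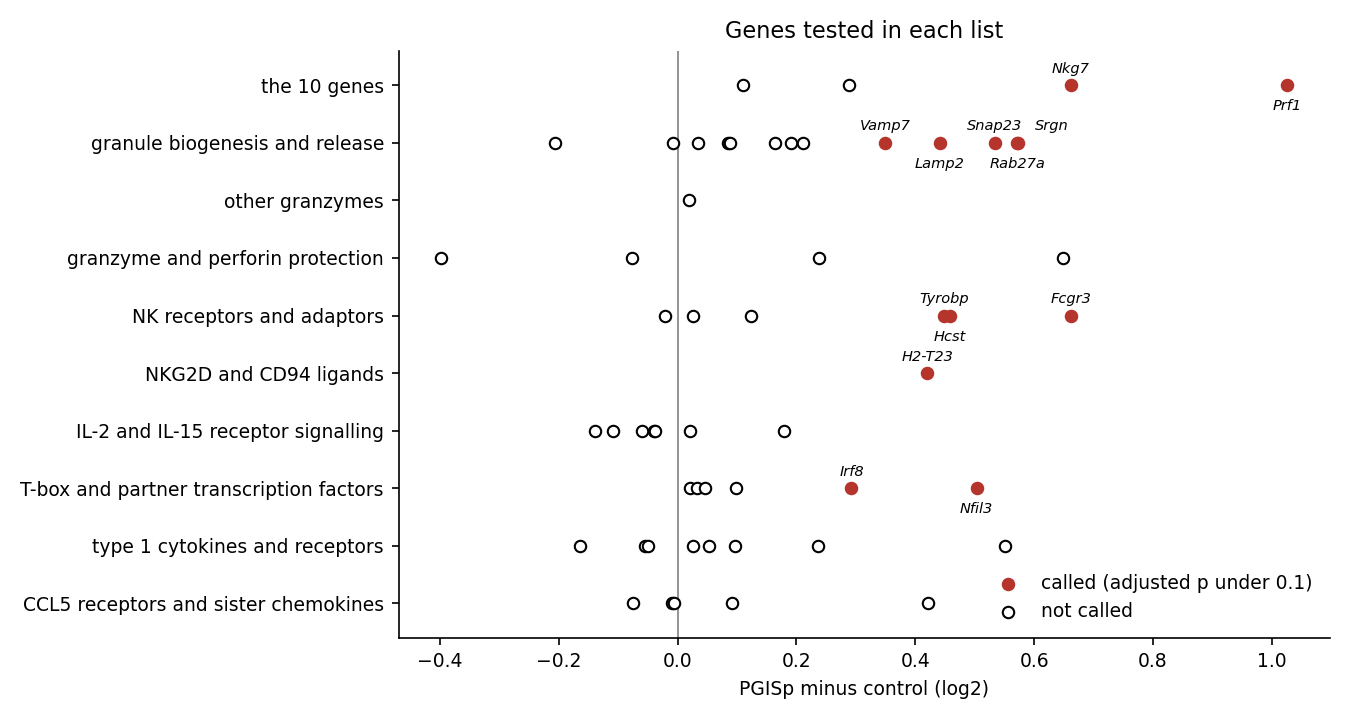
PGISp minus control difference (log2, horizontal axis) of every tested gene in each list, 1 point per gene; filled red points were called at an adjusted p under 0.1 and open points were not. Prf1 had the largest difference of all genes shown, and the called genes of the other lists lay between 0.29 and 0.66.

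No marker of the lymphocytes themselves was called. Of 6 NK cell markers on the array 0 passed the filter, and none was above background on more than 1 array, so a difference in them was not detectable. Of 13 T cell markers 6 were tested and 0 were called, with differences of 0.01 to 0.17, all toward PGISp spines. Their mean level was 7.12 to 7.21 in PGISp spines and 7.06 to 7.12 in control spines. Of the 6, 1 separated the groups, Bcl11b (adjusted p of 0.269), beside 7.77% of all genes tested with every PGISp value above every control value. Of 8 tested B cell markers 0 were called. Cd8b1, a CD8 T cell marker, differed by 0.03, and Cd8a was above background on 0 arrays. Their part in the Nkg7 and Prf1 results was not tested.

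Some markers of other cells were higher in PGISp spines. Over all genes tested, 6.25% were called higher and 4.56% were called lower. Of 13 neutrophil and precursor markers 10 rose and 0 fell. The mean level of the 13 was 12.05 to 12.25 in PGISp spines and 11.48 to 11.63 in control spines. The 3 not called, S100a8, S100a9 and Mmp8, differed by 0.05, 0.15 and 0.20 on the log2 scale. Prtn3, Ctsg, Elane and Mpo, proteases and peroxidase of early neutrophil granules, rose 2.27-, 2.05-, 1.90- and 1.85-fold. Of 8 tested mast cell and basophil markers 2 rose and 0 fell: Hdc, which makes histamine, rose 2.09-fold (adjusted p of 0.000658), and the basophil protease Prss34 rose 1.23-fold (0.0407). The median of that list was 0.10 on the log2 scale, and Hdc had its largest difference, 1.07. Of the tested markers not called, Cma1 and Tpsab1 differed by -0.09 and -0.06, and Mcpt4, Mcpt8, Cpa3 and Fcer1a by 0.04 to 0.18. The mean level of that list, Hdc included, was 7.70 to 7.74 in PGISp spines and 7.46 to 7.59 in control spines, without overlap. Of 5 tested plasmacytoid dendritic cell markers 1 rose, the transcription factor Tcf4, at 1.17-fold (adjusted p of 0.0825). Monocyte and macrophage markers had 0 of 7 called, and erythroid markers 0 of 5. The part of these cells in the Nkg7 and Prf1 results was not tested. The spines also held the tissues the label names: 7 of 8 bone markers, 13 of 13 skeletal muscle markers and 4 of 9 cartilage markers were tested, of which 3 bone markers rose and 1 muscle marker fell. Ibsp, Col1a1 and Col1a2, bone matrix genes, rose 2.62-, 2.51- and 1.38-fold. A second Ibsp probe above the filter differed by 0.55 on the log2 scale, against 1.39 for the probe used. Myoglobin (Mb) was lower in PGISp spines by -0.88 on the log2 scale. All 13 muscle markers were lower in PGISp spines, by -0.06 to -0.88, with a median of -0.39, although only Mb was called. The mean level of the bone markers was 9.20 to 9.85 in PGISp spines and 8.78 to 9.19 in control spines.

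Muscle markers ran in the opposite order to Prf1 among the PGISp spines and also among the control spines, a comparison picked after the values were seen. The mean level of the 13 muscle markers was 12.34, 12.79, 12.73 and 13.24 in PGISp spines A, C, E and G, against 13.28, 12.91, 13.38 and 13.10 in control spines B, D, F and H. The PGISp spine with the highest Prf1, A, had the lowest muscle level, and the one with the lowest Prf1, G, had the highest. Likewise, control D had the highest Prf1 and the lowest muscle level of the control spines, and control F the lowest Prf1 and the highest muscle level. The part of muscle content in the Prf1 result was not tested.

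**Figure D4:**
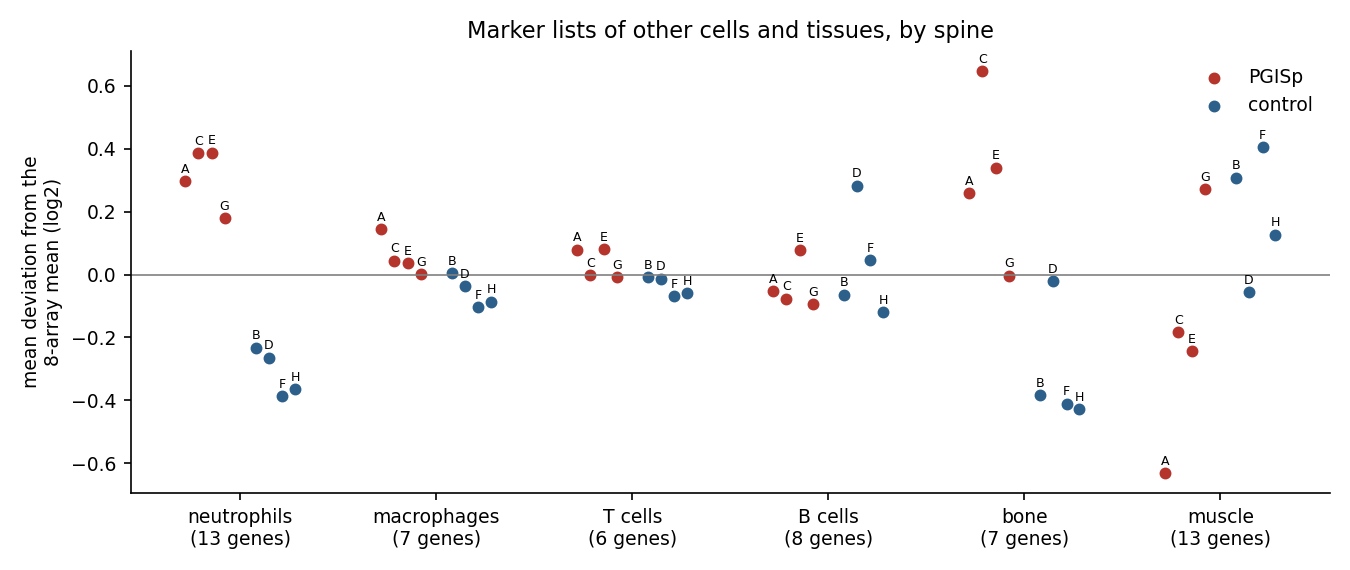
Mean deviation of each marker list from its own mean over the 8 arrays (log2, vertical axis), 1 lettered point per spine, PGISp in red on the left and control in blue on the right of each list. Neutrophil markers separated the groups, and bone markers did so narrowly, with PGISp G at -0.004 and control D at -0.020. T cell and macrophage markers lay within a narrow range, and B cell markers were highest in control D. Muscle ran from PGISp A at the bottom to control F at the top.

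The genes whose values ran most like each measured gene over the 8 arrays were named as a description. For Nkg7 they were Jdp2 (Pearson r of 0.989), Prtn3 (0.986) and Ctsg (0.985), all called higher. For Prf1 they were Ssr4 (0.987), Slc11a1 (0.987) and Eif2ak3 (0.986), for Ccl5 Sh3bgrl (0.978), Gmcl1 (0.961) and Bzw1 (0.949), and for Klrd1 Ifi27l2a (0.967), Ubxn8 (0.962) and Pabpc1 (0.929). Among the 4 genes themselves, Nkg7 and Prf1 ran most alike (r of 0.830), and the other 5 pairs lay between 0.509 and 0.687. The 8 arrays share the 2 groups, so a gene that differs between them correlates with any other that does.

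The 4 measured genes differed in how far their results depended on single spines. Nkg7 was called under all 20 alternatives, with a difference of 0.61 to 0.71 on the log2 scale. Prf1 stayed higher in PGISp spines under all 20, with a difference of 0.73 to 1.32, and was called in 11. Ccl5 was called in 1 of the 20 and Klrd1 in 0.

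**Figure D5:**
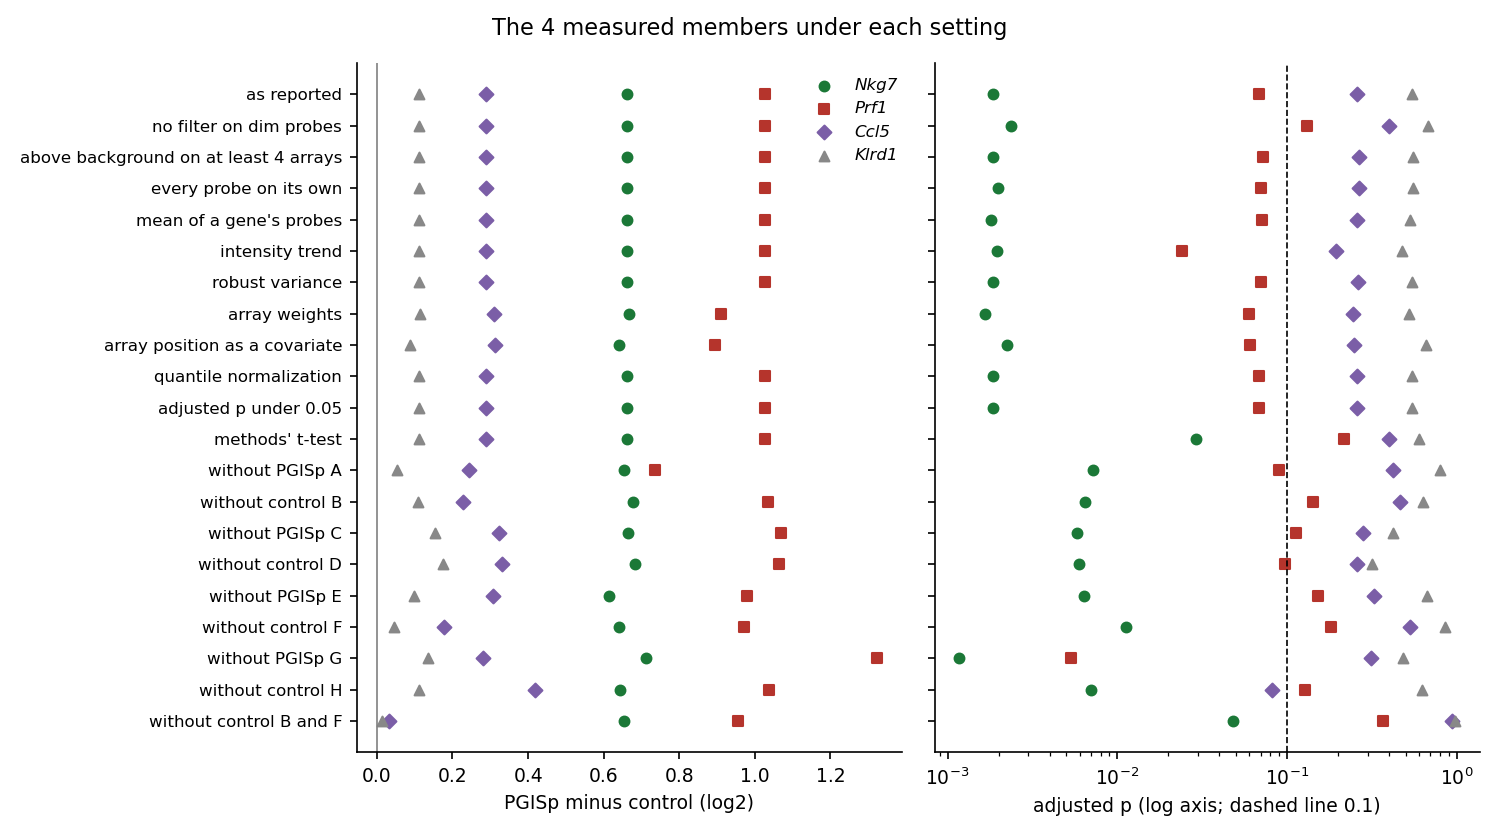
PGISp minus control difference (log2, left panel) and adjusted p (log axis, right panel; dashed line at 0.1) of the 4 measured genes, as reported and under each alternative, with left-out spines named by letter. Nkg7 stayed left of the line throughout, Prf1 crossed it, Ccl5 crossed it once, without control H, and Klrd1 stayed right of it.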

How the data were processed

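Whole spines of 4 PGISp and 4 control mice were measured on 8 arrays. The authors processed the bead signals in GenomeStudio (their notes name BeadStudio), used lumi for the variance-stabilizing transformation and for normalization by robust splines, and the deposited values are log2. Sorted values of any 2 arrays lay at most 0.0050 apart. A second table held 16 signal and detection columns whose names matched no sample, and it was not used. Replicates are separate mice, and their number limits the precision.

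Of 25697 probes, 2 had no values; 23976 had 1 gene symbol, 0 several and 1719 none, and 23960 symbols were updated by gene identifier. Probes with a mean above the array median (6.77) were kept, 12495 in all, and the brightest probe stood for each of 9609 genes. limma (lmFit, eBayes) gave PGISp minus control, with Benjamini-Hochberg adjustment over all genes and a threshold of 0.1. A fold is the log2 difference of the group means taken back to the linear scale. The fit was tested on simulated data. Arrays of 1 group correlated at 0.981 to 0.994, and arrays of different groups at 0.972 to 0.990. All 10 genes were named with every probe, with up to 4 called genes of each list and the 3 genes most correlated with each measured gene. The genes, the lists and the tests were chosen with earlier results of these data known. Alternatives changed the filter on low values, how probes were joined into genes, variance model, weights, position, quantile normalization, the threshold, the methods' t-test and leaving out spines. R 4.3.3, limma 3.58.1, Python 3.11.15, pandas 2.3.3 and matplotlib 3.10.9 were used.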

Additional observations from a re-analysis of the deposited data

How the results depend on the processing

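Nkg7 kept its direction and its call under all 20 alternatives (adjusted p of 0.00117 to 0.0483), and Klrd1 was called under none (0.315 to 0.977). Prf1 kept its direction under all 20 and lost its call, so that 1 of the 10 genes was called higher, without the filter on low values (difference 1.03, adjusted p of 0.131), at an adjusted p under 0.05 (1.03, 0.0681), by the methods' t-test after Benjamini-Hochberg (1.03, 0.216) and without control B and F (0.96, 0.367). Without the filter more genes were tested, and without B and F fewer spines were; otherwise the cause was not tested. Leaving out 1 spine gave a Prf1 difference of 0.73 to 1.32, called in 3 of 8 fits, and a Ccl5 difference of 0.18 to 0.42, called only without control H. In these fits 1 to 2 genes were called higher, and without control H the 2 were Nkg7 and Ccl5, not Prf1. No gene of the 10 was called lower under any alternative. Over all genes, 1039 calls became 577 at an adjusted p under 0.05, 411 by the methods' t-test (1891 at an unadjusted p under 0.05), 163 without control B and F, and 405 to 1564 without 1 spine, lowest without control F and highest without PGISp G. Quantile normalization left the count at 1039, since the arrays already shared 1 distribution, and the mean of a gene's probes took only probes above the filter. A normexp background correction of raw signals was not run, because the columns could not be assigned. No paired analysis was possible because the replicate numbers only name the spines. For the 6 genes at background, signal limits what can be seen.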

Other observations

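The order of the PGISp spines in Prf1, highest in A and lowest in G, was also seen in the interferon-gamma receptor gene Ifngr2, picked after its values were seen. Ifngr2 read 8.88, 8.08, 8.40 and 7.82 in PGISp spines A, C, E and G, against 7.62, 7.85, 7.78 and 7.73 in control spines B, D, F and H. PGISp G lay just below control D, and the difference of 0.55 on the log2 scale did not pass the test (adjusted p of 0.117). The macrophage marker Adgre1 (F4/80), picked the same way, had its highest value in PGISp A too, at 8.57, with 8.04, 7.85 and 7.86 in the other PGISp spines and 7.65, 7.59, 7.66 and 7.69 in control spines. The groups did not overlap, and the difference of 0.43 did not pass the test (adjusted p of 0.106).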
